A study of Mus musculus with 2 samples.

Results

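Bmp2, Bmp4, Bmp5, Bmp6, Gdf5, Gdf6, Gdf10 and Inhba, the genes of 7 BMP or GDF ligands and of an activin subunit, were followed across the cells of the mouse knee. They were chosen as a list of symbols, and all 8 matched a row among the 32285 features of the single-cell tables. Their RNA was counted in 2 libraries of knee joint cartilage cells from WT mice, 1 after DMM (surgical destabilisation of the medial meniscus, an operation that leads to osteoarthritis) and 1 after sham surgery. Each library pooled 3 mice, and the sort had kept live cells (CalceinAM+ and DAPI-) that were CD45-, Ter119- and CD31-. The age of the mice and the time after surgery are not given in the sources used here. With 1 library per group there is no replicate and no test between DMM and sham, so values of both libraries are given. Brackets hold 95% intervals for counting error, and no interval includes the variation from mouse to mouse, from cell to cell or from one preparation to another.

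These ligands are secreted dimers of the TGF-beta superfamily that bring type I and type II receptor kinases together at the cell surface. BMP2, BMP4, BMP5, BMP6, GDF5 and GDF6 act mainly through SMAD1, SMAD5 and SMAD9. Activin A, a dimer of the protein that Inhba encodes, acts through SMAD2 and SMAD3. In the joint, Gdf5 and Gdf6 mark and shape the embryonic joint interzone, Bmp2 and Bmp4 drive cartilage formation, Bmp6 is known from hypertrophic growth plate chondrocytes, and loss of Bmp5 gives the short ear mouse its skeletal defects.

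The DMM library held 97346999 UMIs in 11076 barcodes and the sham library 106799078 UMIs in 11362 barcodes, and 24 barcode sequences occurred in both. Filtering kept 9529 cells of each, with medians of 7859 UMIs per cell in DMM and 8064 in sham. The 8 ligands were taken out of the variable genes before clustering, so that no cluster was defined by them. Connective tissue, meaning clusters in which at least 50% of cells had a UMI of the collagen chaperone Serpinh1, made up 88.0% of DMM cells (8384) and 80.0% of sham cells (7623). It included 17 populations with at least 50 cells per library, each called here by a class name (suffix "-like", from marker lists) and its leading gene, or by its leading gene alone where no marker list led. The label of superficial cells could hold for some of them by their Prg4, the lubricin of the cartilage surface. Prg4 was at 71551 CPM in DMM and 49576 in sham in the Casr superficial-like cells, and at 63247 and 66078 in the Serpina1e cells. It was at 567 and 524 in the hypertrophic-like cells. The lining-like cells of the synovium (69905 and 61653) and the Wif1 cells (20294 and 22036) also had it, so Prg4 alone does not mark cartilage surface cells. The Npy cells, led by Npy, Angptl7 and Spp1, had 9733 CPM of Prg4 in DMM and 14561 in sham but took no class name, because Col1a1 (2778 and 1913 CPM) was above Col2a1 (553 and 347) in them. CPM here means UMIs of a gene per 1000000 UMIs of the cells named. Although Ter119+ cells had been sorted away, 10.1% of DMM cells and 17.9% of sham cells were erythroid-like. The 8 erythroid markers summed to 244 to 3168 CPM (median 628) in the 17 DMM populations and to 300.0 to 9418 CPM (median 2743) in the sham populations, and their part in any ratio below was not tested.

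Nearly all ligand RNA came from connective tissue. It held between 98.6% (Gdf6) and 99.7% (Bmp2 and Gdf10) of a ligand's UMIs in DMM, and between 96.9% (Gdf5) and 99.8% (Gdf6) in sham. After thinning each cell to 2000 UMIs, 55.0% of DMM and 58.3% of sham connective tissue cells had a UMI of at least 1 of the 8 ligands, and 23.1% and 25.7% had UMIs of at least 2 of them. The same share was 1.34% in DMM and 3.08% in sham erythroid-like cells, which should lack most of these genes and so show the level of free RNA. It was highest in the Casr superficial-like cells (92.0% in DMM, 91.1% in sham), in the Serpina1e cells (85.3% and 84.4%) and in the marrow stromal-like cells (84.2% and 88.8%). By the mean of both libraries, these 3 populations were also where 6 of the 8 ligands had their highest level.

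**Figure D1:**
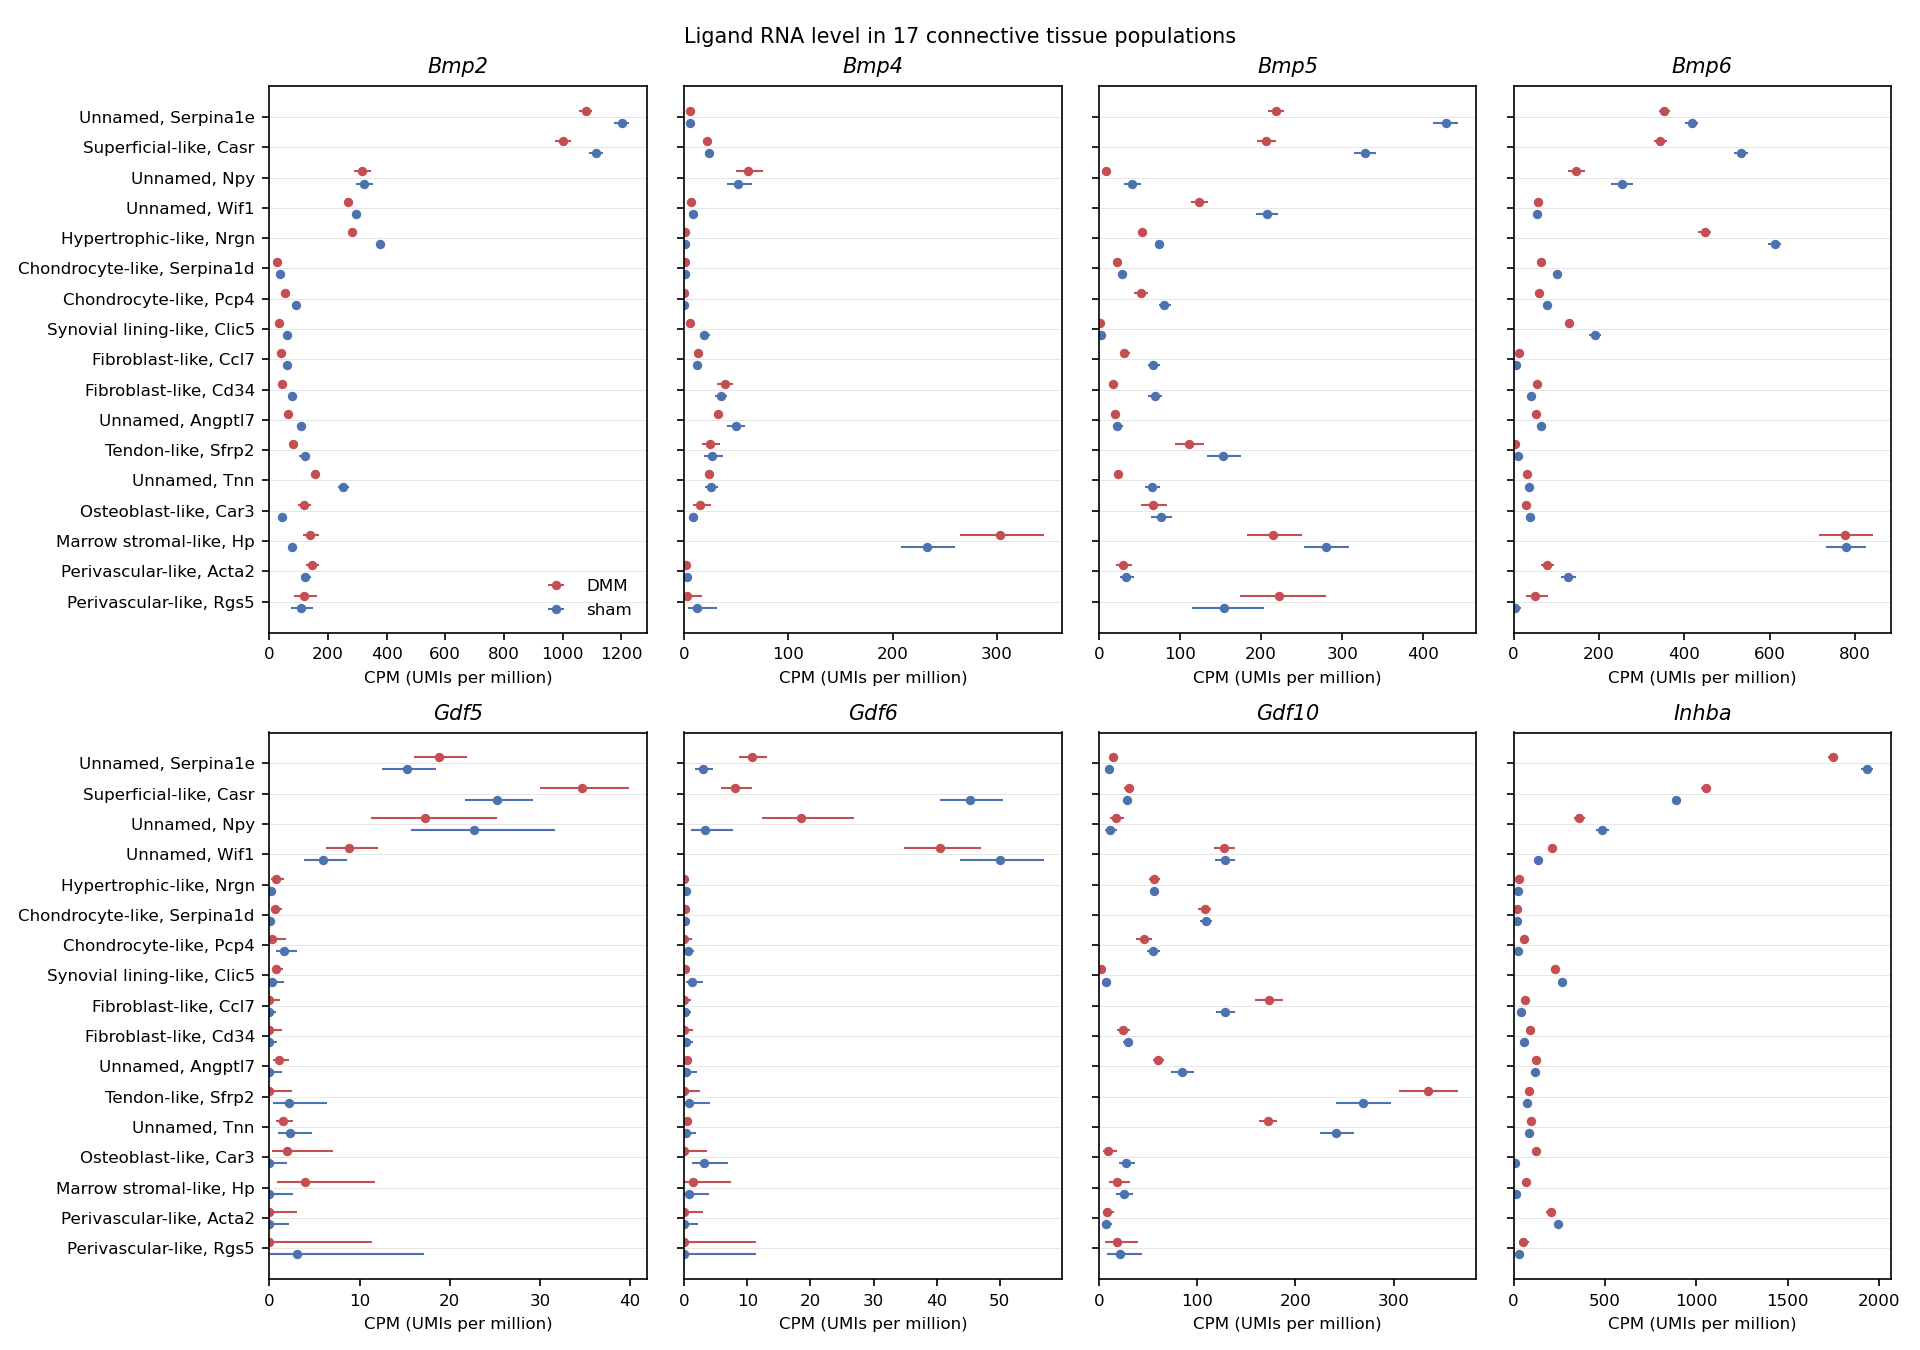
CPM of each ligand (horizontal axes, linear and different for each ligand, with exact Poisson 95% intervals) in the 17 connective tissue populations, DMM above sham in each row. By the mean of both libraries, Inhba, Bmp2 and Bmp5 were highest in the Serpina1e cells (Bmp5 in sham, while in DMM the Rgs5 perivascular-like cells were at 222 CPM and the Serpina1e cells at 218), Bmp4 and Bmp6 in the marrow stromal-like cells, Gdf5 in the Casr superficial-like cells, Gdf6 in the Wif1 cells and Gdf10 in the tendon-like cells.

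Inhba was highest in the Serpina1e, Casr superficial-like and Npy cells, and its level did not follow Prg4 alone. The lining-like cells were about as rich in Prg4 as the Serpina1e cells (69905 CPM in DMM, 61653 in sham) but lower in Inhba. The Serpina1e cells, led by Serpina1e, Col10a1 and Ecrg4 and numbering 940 in DMM and 655 in sham, had 1748 CPM [1720, 1775] of Inhba in DMM and 1935 [1902, 1968] in sham. They made up 9.86% of DMM and 6.87% of sham cells, and held 54.4% [53.8, 55.0] and 54.5% [53.8, 55.1] of all Inhba UMIs. The Casr superficial-like cells came next, with 1055 CPM in DMM and 889 in sham, followed by the Npy cells with 360 and 487. Each of these 3 stood above the next in the order in both libraries, meaning that its lower library was above the higher library of the next. The lining-like cells of the synovium (225 CPM in DMM, 268 in sham), the Acta2 perivascular-like cells (204 and 243) and the Wif1 cells (212 and 135) came after them. The lining-like and the Acta2 cells overlapped, as did the Acta2 and the Wif1 cells. Among the lower levels were those of the hypertrophic-like cells (27.8 CPM in DMM, 24.9 in sham) and of the Serpina1d chondrocyte-like cells (18.6 and 18.7).

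Of the 5 ligands with a promoter window in the RefSeq table used here, only Inhba had the letters TATAAA of the TATA box motif. The window runs from 250 bases before to 50 bases after the annotated start, on the plus strand at chr13:16011601-16011900 of GRCm38.p6. The capitals mark TATAAA, found on the plus strand from base 160 of the window, whose first 250 bases lie before the annotated start. Of 32851 mouse promoter windows of the same 300-base length, 13.6% hold these letters on either strand. Whether they work as a TATA box at that distance from the start was not tested. The window is shown because Inhba was the ligand with the largest share of its UMIs in 1 population in both libraries.
Inhba: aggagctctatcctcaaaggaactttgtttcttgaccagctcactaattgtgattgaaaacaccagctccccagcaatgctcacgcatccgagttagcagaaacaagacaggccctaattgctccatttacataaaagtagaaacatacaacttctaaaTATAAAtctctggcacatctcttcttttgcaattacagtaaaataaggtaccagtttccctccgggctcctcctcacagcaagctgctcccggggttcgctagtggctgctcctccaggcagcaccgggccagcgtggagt
The same search on both strands for TGANTCA (the AP-1 site, in 7.81% of windows), TGACGTCA (the cyclic AMP response element, 1.79%) and GGCGCC (a GC-rich SMAD-binding core, 11.9%) found none of them in the Inhba window. A missing motif says only that these letters are not in this window.

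Bmp2, a strong inducer of cartilage and bone, shared these populations with Inhba but reached further. It was at 1078 CPM [1057, 1100] in DMM and 1201 [1175, 1227] in sham in the Serpina1e cells, and at 1001 [975, 1028] and 1114 [1089, 1138] in the Casr superficial-like cells, 2 populations that could not be ranked. The hypertrophic-like cells (282 CPM in DMM, 377 in sham) and the Npy cells (317 and 323) formed the next level and overlapped each other. They were followed by the Wif1 cells, led by Wif1, Msmp and Frzb, with 269 CPM in DMM and 297 in sham, and by the Tnn cells, led by Tnn, Mmp13 and Ptprz1, with 156 and 252. Of all Bmp2 UMIs, 42.8% in DMM and 31.6% in sham lay in the Serpina1e cells, and 9.13% in DMM and 16.0% in sham in the hypertrophic-like cells, whose share of cells was 4.53% and 6.04%.

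Bmp4, the closest relative of Bmp2, had another place. The marrow stromal-like cells, marked by Lepr and Cxcl12, had 303 CPM [265, 345] in DMM and 233 [208, 259] in sham, although they numbered 114 and 194. They were 1.20% of DMM and 2.04% of sham cells and held 18.7% [16.6, 21.0] and 26.7% [24.3, 29.3] of all Bmp4 UMIs. The Npy cells followed with 61.7 CPM in DMM and 52.1 in sham. The Angptl7 cells, led by Angptl7, Ctla2a and Col3a1 (32.7 and 49.3), and the Cd34 fibroblast-like cells (39.0 and 35.1) could not be ranked. In the Serpina1e cells, where Bmp2 was highest, Bmp4 was at 5.89 CPM in DMM and 6.02 in sham.

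**Figure D2:**
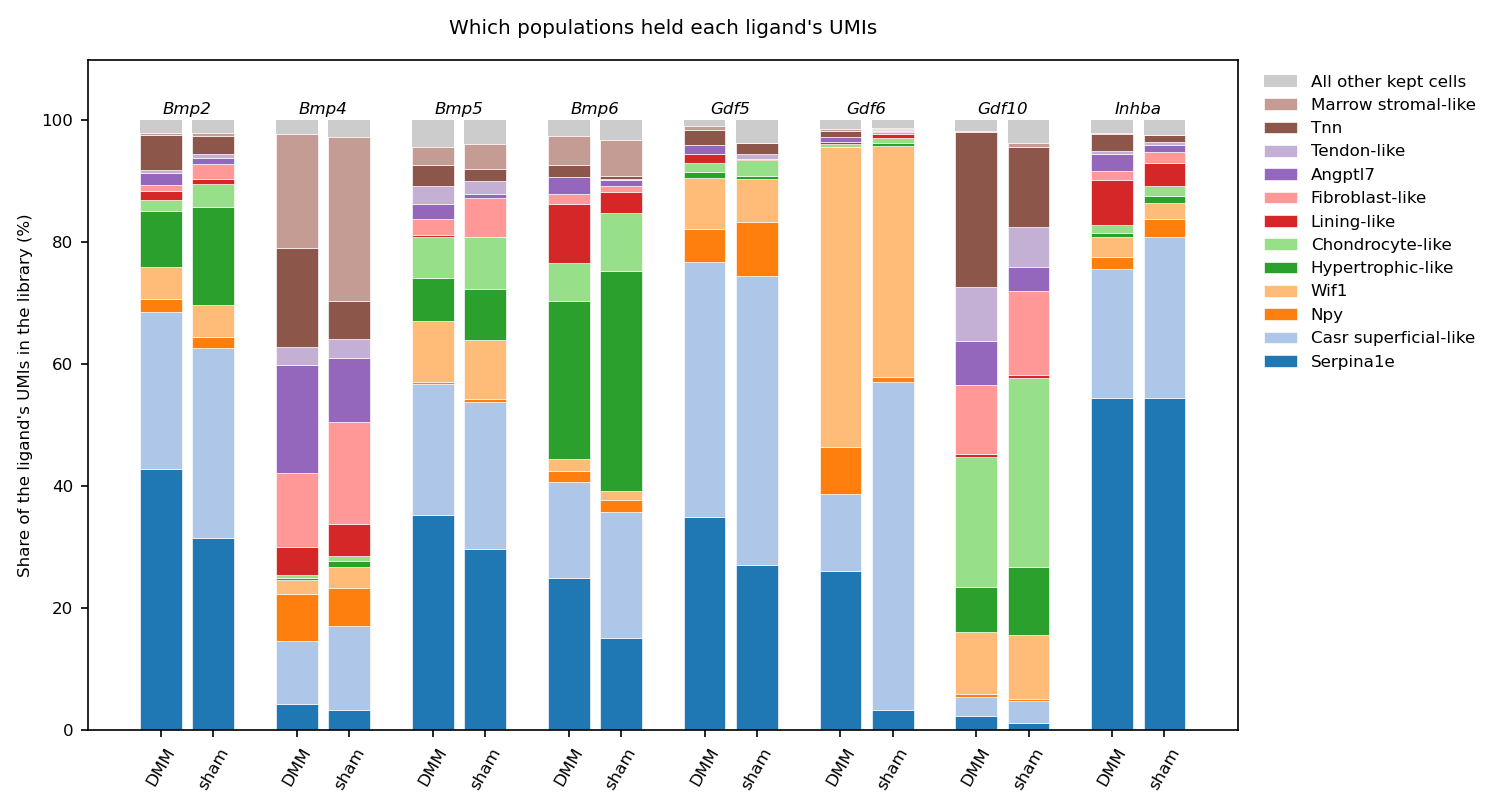
Share of each ligand's UMIs (vertical axis, %) by population, DMM bar left of the sham bar for each ligand, with pairs of chondrocyte-like and of fibroblast-like populations joined and all remaining cells in grey. The Serpina1e cells held 54.4% of Inhba UMIs in DMM and 54.5% in sham, while the Casr superficial-like share of Gdf6 was 12.6% in DMM and 53.9% in sham.

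Bmp6, which also acts in iron balance as the inducer of hepcidin in the liver, was highest in the marrow stromal-like cells, at 776 CPM [714, 842] in DMM and 778 [732, 825] in sham. The hypertrophic-like cells, with Ihh and Panx3 among their leading genes, came next with 448 CPM [432, 463] in DMM and 611 [597, 626] in sham, and held 25.8% and 36.1% of all Bmp6 UMIs. They overlapped with the Casr superficial-like cells (344 in DMM, 533 in sham), which overlapped in turn with the Serpina1e cells (353 and 417). The chondrocyte-like populations, rich in Col2a1, were far lower: 63.4 CPM in DMM and 103 in sham in the Serpina1d cells, and 59.0 and 79.1 in the Pcp4 cells.

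Bmp5, of the same subgroup as Bmp6, was spread over more populations. In sham its order was Serpina1e cells (427 CPM), Casr superficial-like cells (328), marrow stromal-like cells (279), Wif1 cells (207), Rgs5 perivascular-like cells (154) and tendon-like cells (153). In DMM the same 6 populations were again highest but closer together, at 218, 206, 215, 124, 222 and 111 CPM, and each of them overlapped with its neighbours in the order over both libraries. The lowest of all was the lining-like population, with 1.504 CPM in DMM and 2.37 in sham, in the range of the erythroid-like populations (0.453 to 2.36 in DMM, 1.06 to 4.35 in sham).

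The joint ligands Gdf5 and Gdf6 were the most restricted. Gdf5 was at 34.7 CPM [30.0, 39.9] in DMM and 25.3 [21.7, 29.2] in sham in the Casr superficial-like cells, and at 18.8 and 15.3 in the Serpina1e cells, 17.3 and 22.7 in the Npy cells and 8.84 and 5.90 in the Wif1 cells. In the other 13 connective populations it did not pass 4.00 CPM in either library. Gdf6 was at 40.6 CPM [34.8, 47.0] in DMM and 50.02 [43.8, 56.9] in sham in the Wif1 cells, and the same 4 populations held 95.6% of its UMIs in DMM and 95.9% in sham. Elsewhere in connective tissue it did not pass 3.22 CPM.

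Gdf10, also called Bmp3b, was highest in some of the fibrous populations but not in all of them. The tendon-like cells, led by Sfrp2, were at 335 CPM [306, 366] in DMM and 268 [242, 297] in sham, above every other population in both libraries. The Tnn cells (172 in DMM, 242 in sham) and the Ccl7 fibroblast-like cells (173 and 128) overlapped, and the Wif1 cells (127 and 128) and the Serpina1d chondrocyte-like cells (108 and 109) followed. In the populations where Inhba and Bmp2 peaked it was low, at 14.7 CPM in DMM and 9.98 in sham in the Serpina1e cells and at 30.3 and 28.6 in the Casr superficial-like cells. The Cd34 fibroblast-like cells (24.6 and 29.5) and the osteoblast-like cells (9.79 and 27.9) were low as well.

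Across the 17 connective populations, which share the 2 libraries and their depth, the patterns of several ligands were alike. Over log2(CPM + 1), Pearson's r was 0.81 in DMM and 0.81 in sham between Bmp2 and Gdf5, 0.71 and 0.74 between Bmp2 and Inhba, 0.76 and 0.71 between Gdf5 and Inhba, and 0.88 and 0.66 between Gdf5 and Gdf6. Bmp6 and Gdf10 ran opposite ways, with r of -0.54 in DMM and -0.45 in sham. Among 5440 other genes, the gene most like each ligand by the lower of the 2 libraries' r was Psmd7, a proteasome subunit, for Inhba (0.88), Chst3, a chondroitin sulfotransferase, for Bmp2 (0.83), and Lepr, the leptin receptor, for Bmp4 (0.88). It was Fhl2, a LIM domain protein, for Bmp5 (0.77), and Scp2, a sterol carrier protein, for Bmp6 (0.74). For the remaining ligands it was Cst6, a cystatin, for Gdf5 (0.88), Pdcd1, the receptor PD-1, for Gdf6 (0.83), and Col16a1, a fibril-associated collagen, for Gdf10 (0.83).

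Over connective tissue as a whole, Bmp5 and Gdf6 were lower in the DMM library and no ligand was past 1.5-fold higher. A ratio was counted as past the fold when it reached 1.5-fold in either direction, its interval did not include 1 and the gene had at least 50 UMIs over both libraries. Bmp5 was at 71.5 CPM in DMM and 127 in sham, 1.78-fold lower [1.72, 1.84], and Gdf6 at 4.73 and 7.91 CPM, 1.67-fold lower [1.47, 1.91]. Bmp6 was just short of the fold, at 162 CPM in DMM and 242 in sham, 1.49-fold lower [1.46, 1.52]. Inhba was at 371 CPM in DMM and 316 in sham (ratio 1.18 [1.16, 1.20]), Gdf5 at 6.21 and 4.87 (1.28 [1.11, 1.47]) and Bmp2 at 292 and 337 (0.866 [0.851, 0.882]). Bmp4, at 15.9 and 16.0 CPM, and Gdf10, at 72.3 and 72.8, had ratios of 0.993 [0.916, 1.08] and 0.994 [0.958, 1.03]. Of 16561 genes with a ratio in connective tissue, 4.02% were past the fold higher and 14.7% lower, beside 0 and 2 of the 8 ligands. The median log2 ratio of DMM over sham was -0.16 over those genes and -0.11 over the 8 ligands.

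**Figure D3:**
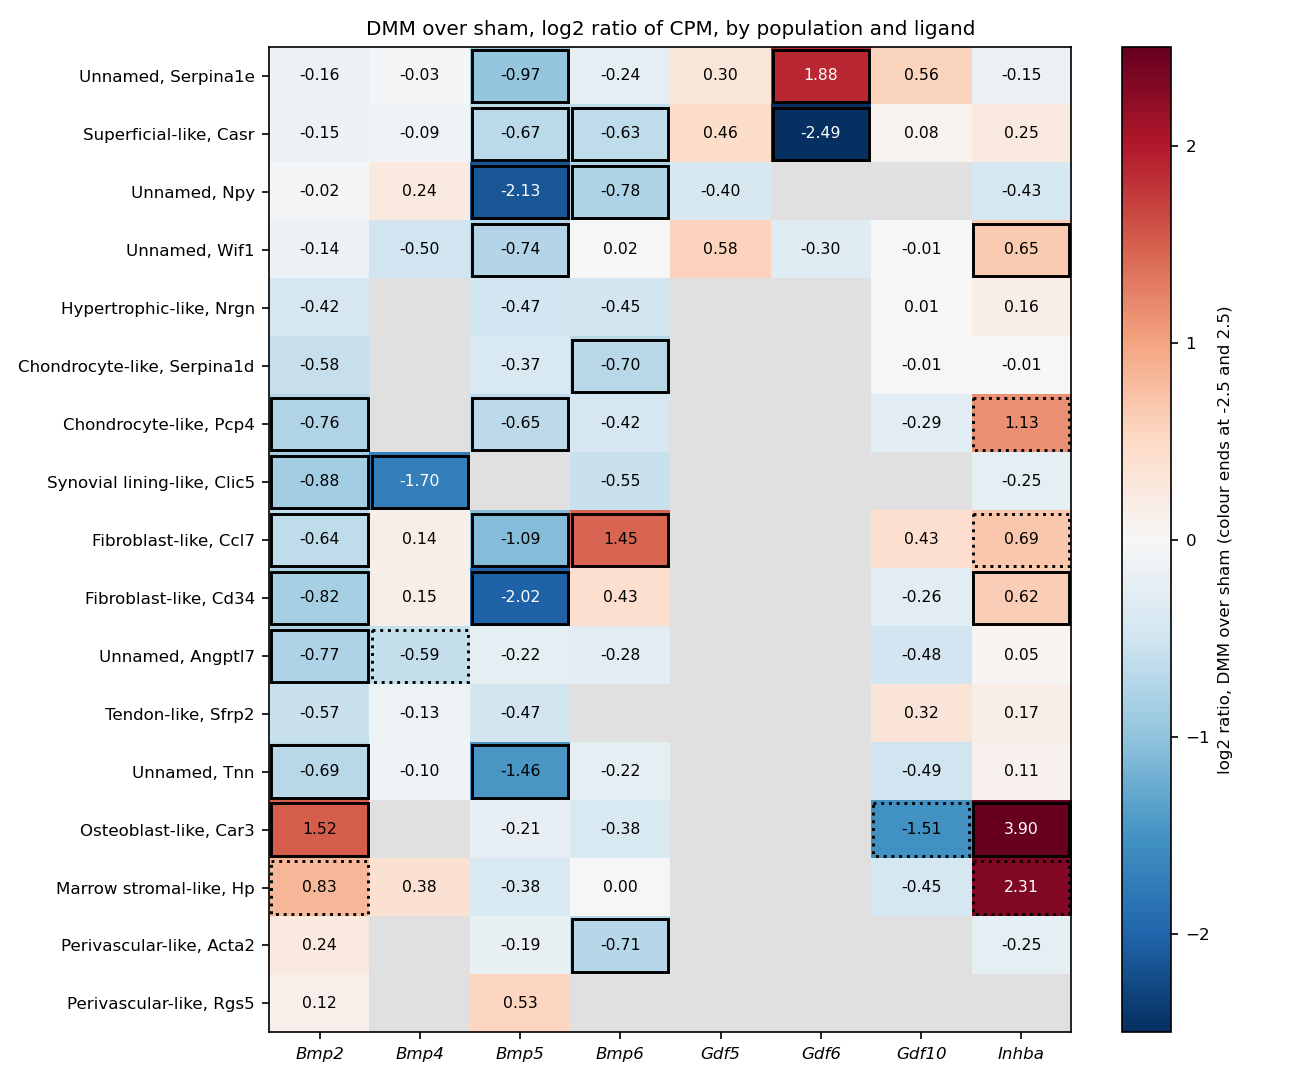
Log2 ratio of CPM, DMM over sham (colour and number), of each ligand (columns) in each connective tissue population (rows), with grey where a ligand had under 50 UMIs in the population. Solid frames mark ratios past 1.5-fold that stayed past it without the top cell of each library, and dotted frames those that did not. Bmp5 was lower in 8 populations, and the largest positive values, for Inhba in the osteoblast-like and marrow stromal-like cells, had most of their DMM UMIs in 1 cell.

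Within populations, 95 of 136 pairs of ligand and connective population had enough UMIs for a ratio. Of these, 10 were past the fold higher and 22 lower. Over all genes, 4.06% of 144972 such pairs were higher and 11.1% lower. A gene's UMIs can sit in few cells, so every ratio was also taken without the cell with most UMIs of that ligand in each library, and 6 pairs were then higher and 22 lower, not all of them the same pairs. With median-of-ratios scaling, which shifted log2 ratios over connective tissue by 0.16 and put the median gene at no difference, 13 pairs were higher and 15 lower. The shares over all genes, here and below, were taken with plain CPM and all cells. They were not computed without the top cells or with this scaling.

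Bmp5 was the ligand that was lower in the most populations. Its ratio was below 1 in 15 of 16 connective populations and past the fold lower in 8, with none higher. Of 4612 genes with a ratio in at least 16 connective populations, 4.18% were lower in at least 8 and higher in none. In the Serpina1e cells it was at 218 CPM [208, 228] in DMM and 427 [412, 443] in sham, 1.96-fold lower [1.85, 2.08], and in the Casr superficial-like cells at 206 [194, 218] and 328 [315, 342], 1.59-fold lower [1.48, 1.71]. The Cd34 fibroblast-like cells, which carry Pi16, had 17.0 CPM [12.4, 22.8] in DMM and 68.9 [61.1, 77.4] in sham, 4.05-fold lower [2.95, 5.67]. Among thinned cells, 2.82% had a Bmp5 UMI in DMM and 11.0% in sham there, and in the Serpina1e cells 28.6% and 42.0%. The Npy cells (9.29 CPM in DMM, 40.7 in sham), the Tnn cells (23.6 and 65.1), the Ccl7 fibroblast-like cells (31.5 and 67.3), the Wif1 cells (124 and 207) and the Pcp4 chondrocyte-like cells (51.5 and 80.9) were lower as well. The exception was the Rgs5 perivascular-like population, with 68 DMM and 67 sham cells, where the ratio was 1.44 [0.991, 2.11]. All 8 lower ratios stayed past the fold without the top cells, and with median-of-ratios scaling 5 of them did.

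Bmp6 was lower in 4 of 15 connective populations (2 with median-of-ratios scaling) and higher in 1. In the Casr superficial-like cells it was at 344 CPM [328, 359] in DMM and 533 [516, 550] in sham, 1.55-fold lower [1.47, 1.64], and in the Npy cells at 147 and 253, 1.72-fold lower [1.45, 2.04]. The ratio in the Casr cells was short of the fold under 4 of 11 alternatives (a Leiden resolution of 1.5, centring by library, median-of-ratios scaling and totals without the 50 top genes), with a log2 ratio as near to 0 as -0.27. That in the Npy cells was short of it under 3, with -0.055 at a Leiden resolution of 0.5. The Serpina1d chondrocyte-like cells (63.4 CPM in DMM, 103 in sham) and the Acta2 perivascular-like cells (78.3 and 128) were lower as well. The ratio in the Serpina1d cells stayed past the fold under 9 of 11 alternatives, with a log2 ratio as near to 0 as -0.23. That in the Acta2 cells stayed past it under 7, with -0.56. In the highest population of Bmp6, the marrow stromal-like cells, the ratio was 0.998 [0.901, 1.10]. The Ccl7 fibroblast-like cells went the other way from a low level, with 13.0 CPM in DMM and 4.75 in sham. Both values lay in the range of the erythroid-like populations (1.33 to 14.2 in DMM, 3.52 to 8.50 in sham).

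Bmp5 and Bmp6 are long genes, and long genes stood lower in the DMM library as a group. Bmp5 lies on chromosome 9 (75775364 to 75900310, plus strand, GRCm38) and spans 125 kb, and Bmp6 on chromosome 13 (38345107 to 38500302, plus strand) and spans 155 kb. Over 16552 genes in connective tissue, Spearman's rho between span and log2 ratio was -0.39, a description across genes that are not independent replicates. The median log2 ratio was 0.13 in the decile of genes with the shortest span and -0.44 in the decile with the longest. Set against the median of their own decile, Bmp5 had a difference of -0.49 and Bmp6 of -0.13 on the log2 scale, where the plain log2 ratios were -0.83 and -0.58. Gdf6, which spans 18.0 kb on chromosome 4, was at -0.65 after this step, and Inhba, with 19.8 kb on chromosome 13, at 0.32. What span stands for in these libraries was not tested.

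**Figure D4:**
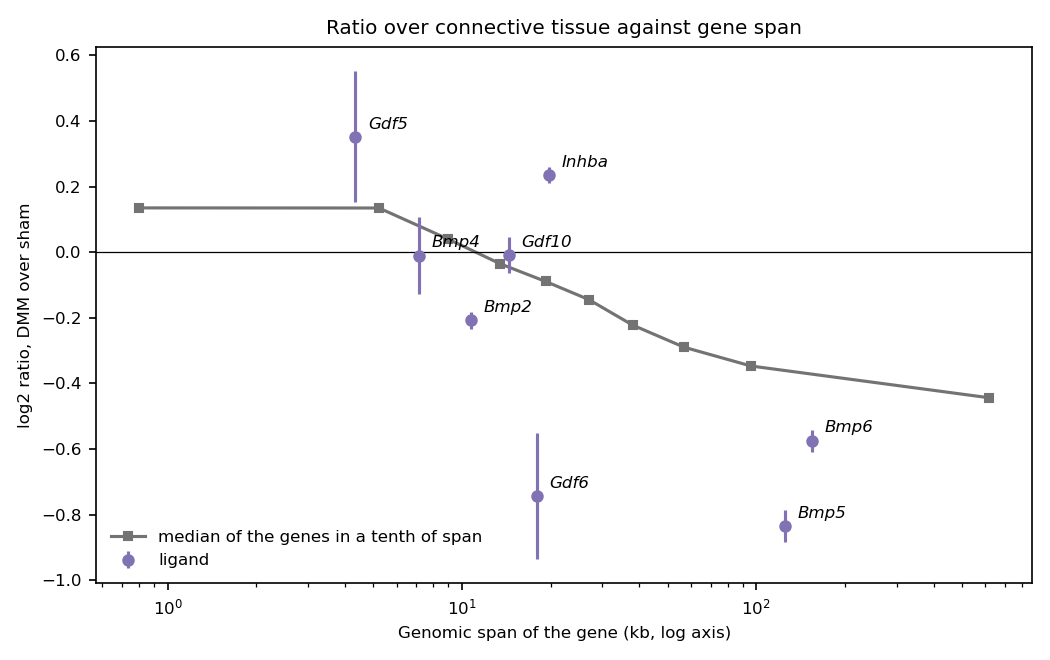
Log2 ratio of DMM over sham over connective tissue (vertical axis, with 95% intervals of counting error for the ligands) against genomic span (horizontal axis, kb, log scale), with squares for the median of each decile of genes at the middle of its span range on the log scale. The medians run from 0.13 to -0.44 with span. Bmp2 (difference -0.25), Bmp4 (-0.14), Bmp6 (-0.13), Bmp5 and Gdf6 lie below the median of their decile.

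The promoter windows of Bmp5 and Bmp6 are shown because both ligands were past the fold lower in the Casr superficial-like and in the Npy cells. They are RefSeq windows of GRCm38.p6 on the plus strand, chr9:75775115-75775414 and chr13:38345466-38345765. The Bmp5 window holds the gene start given above (75775364). The Bmp6 window lies wholly inside the gene as placed above, after its start at 38345107, so the 2 annotations differ on where Bmp6 starts. There are no capitals because none of the 4 motifs searched in the Inhba window is in them.
Bmp5: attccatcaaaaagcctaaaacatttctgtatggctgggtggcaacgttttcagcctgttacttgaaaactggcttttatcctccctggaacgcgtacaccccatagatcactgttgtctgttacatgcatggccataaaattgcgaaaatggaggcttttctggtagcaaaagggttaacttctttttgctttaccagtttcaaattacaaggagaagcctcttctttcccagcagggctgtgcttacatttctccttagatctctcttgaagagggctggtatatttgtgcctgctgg
Bmp6: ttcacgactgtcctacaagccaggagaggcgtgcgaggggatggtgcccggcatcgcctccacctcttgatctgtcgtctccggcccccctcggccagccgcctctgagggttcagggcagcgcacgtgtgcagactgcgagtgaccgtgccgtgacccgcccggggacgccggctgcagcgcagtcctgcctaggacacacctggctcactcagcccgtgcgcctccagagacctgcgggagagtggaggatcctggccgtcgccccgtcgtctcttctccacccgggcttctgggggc
The 2 windows differ in base composition, with 43.3% G or C in Bmp5 and 69.3% in Bmp6.

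Gdf6 went opposite ways in the Casr superficial-like and the Serpina1e cells, both rich in Prg4. In the Casr superficial-like cells it was at 8.06 CPM [5.90, 10.8] in DMM and 45.3 [40.5, 50.4] in sham, 5.61-fold lower [4.11, 7.82]. In the Serpina1e cells it was at 10.8 CPM [8.71, 13.2] in DMM and 2.93 [1.79, 4.53] in sham, 3.67-fold higher [2.25, 6.28], on 95 and 20 UMIs. The Npy cells had 28 UMIs in DMM, of which 53.6% were in 1 cell, and 5 in sham, too few for a ratio. In the Wif1 cells, where it was highest, the ratio was 0.811 [0.663, 0.990]. After a clustering on variable genes centred within each library, the cluster matching the Casr superficial-like cells was higher in DMM (log2 ratio 0.80) instead of lower (-2.49).

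Gdf5 was past the fold in none of 4 populations with enough UMIs, and higher in 2 of them with median-of-ratios scaling. Its ratio was 1.37 [1.12, 1.69] in the Casr superficial-like cells, 1.23 [0.959, 1.59] in the Serpina1e cells, 0.760 [0.438, 1.30] in the Npy cells and 1.498 [0.894, 2.55] in the Wif1 cells, where the interval included 1.

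Bmp2 was lower in 6 of 17 connective populations and higher in 2, while in its highest ones it was short of the fold. The lining-like cells (33.5 CPM in DMM, 61.6 in sham) were 1.84-fold lower [1.53, 2.20] and the Cd34 fibroblast-like cells (43.9 and 77.6) 1.77-fold lower [1.43, 2.21]. The Angptl7, Pcp4 chondrocyte-like, Tnn and Ccl7 fibroblast-like cells were 1.71-fold, 1.69-fold, 1.62-fold and 1.56-fold lower. In the Serpina1e and Casr superficial-like cells the ratios were 0.898 [0.871, 0.925] and 0.899 [0.869, 0.930]. The osteoblast-like cells were higher, with 119 CPM [98.3, 142] in DMM and 41.4 [32.6, 51.7] in sham, and 41.3% of the DMM UMIs were in 1 of 80 cells. There the log2 ratio was 1.52 with all cells and 1.09 without the top cells. The marrow stromal-like cells (139 and 77.8 CPM) were past the fold only with the top cells included, with a log2 ratio of 0.83 against 0.58 without them. In the marrow stromal-like cells, where Inhba was also past the fold higher, Prg4 was at 2887 CPM in DMM and 433 in sham and Acan at 115 and 17.7, and their part in these ratios was not tested.

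Bmp4 was lower in 2 of 11 connective populations. The lining-like cells were at 5.91 CPM [4.45, 7.69] in DMM and 19.2 [14.8, 24.5] in sham, 3.26-fold lower [2.24, 4.75], and 0.733% of thinned cells in DMM and 4.25% in sham had a UMI of it. The other one, the Angptl7 cells (32.7 and 49.3 CPM), was short of the fold without the top cells (log2 ratio -0.59 with them, -0.56 without). That ratio stayed past the fold under only 2 of 11 alternatives, with log2 ratios between -0.97 and 0.018. In the marrow stromal-like cells, the highest population of Bmp4, the ratio was 1.30 [1.09, 1.54].

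Inhba was past the fold higher in 6 of 16 connective populations and lower in none, but not in the populations that held most of it. Of the same 4612 genes, 2.17% were higher in at least 6 connective populations and lower in none. The Serpina1e cells had a ratio of 0.903 [0.882, 0.924] and the Casr superficial-like cells 1.19 [1.15, 1.23], although 59.1% of thinned Casr cells had an Inhba UMI in DMM and 45.8% in sham. The Wif1 cells were at 212 CPM [198, 226] in DMM and 135 [125, 146] in sham, 1.57-fold higher [1.41, 1.74], and the Cd34 fibroblast-like cells at 90.1 [79.0, 102] and 58.5 [51.4, 66.4], 1.54-fold higher [1.28, 1.85]. The osteoblast-like cells had 123 UMIs (120 CPM) in DMM, 52.8% of them in 1 cell, and 15 UMIs (8.06 CPM) in sham, a log2 ratio of 3.90 with all cells and 3.26 without the top cells. These 3 stayed past the fold without the top cells and the other 3 did not. The ratio in the Wif1 cells was short of the fold after thinning (log2 0.53). That in the Cd34 cells was short of it with at least 1000 genes per cell, at most 5% mitochondrial UMIs or doublets kept, with a log2 ratio as low as 0.27. In the marrow stromal-like cells 82.0% of 50 DMM UMIs were in 1 cell, and the log2 ratio was 2.31 with the top cells and 0.02 without. In the Pcp4 chondrocyte-like cells 65.7% of the DMM UMIs were in 1 cell, with log2 ratios of 1.13 and 0.45, and in the Ccl7 fibroblast-like cells 26.0%, with 0.69 and 0.42. For all connective tissue, the Inhba log2 ratio was 0.23, and 0.042 when the population levels of both libraries were weighted by the sham makeup.

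Gdf10 was past the fold in 1 of 13 connective populations, the osteoblast-like cells, on 10 UMIs in DMM and 52 in sham, and in none without the top cells. In its highest population, the tendon-like cells, the ratio was 1.248 [1.09, 1.43], but its direction turned in 5 of 11 alternatives, with log2 ratios between -0.41 and 0.47. The Tnn cells (172 CPM in DMM, 242 in sham) had 0.710 [0.649, 0.777] and the Ccl7 fibroblast-like cells (173 and 128) 1.35 [1.20, 1.51].

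The labels name Procr, the endothelial protein C receptor, as a sort marker of bulk samples that were not analysed here. In the lining-like cells, 464 DMM and 165 sham cells had a Procr UMI, and 358 and 141 had none. Bmp4, Bmp2, Bmp6 and Inhba were all higher in the cells with a Procr UMI in both libraries, meaning intervals without 1 and no fold limit. The share of all genes higher in this way was not computed, here or in the other populations below. Whether the ligands differed from other genes in this was therefore not tested. The ratio of cells with to cells without was 5.47 [2.34, 15.6] in DMM and 1.93 [1.10, 3.54] in sham for Bmp4, on 6 DMM UMIs in the cells without, and 1.51 [1.18, 1.94] and 1.96 [1.44, 2.71] for Bmp2. For Bmp6 it was 1.27 [1.13, 1.43] and 1.67 [1.41, 1.99], and for Inhba 1.21 [1.11, 1.33] and 1.59 [1.38, 1.84]. Cells with a Procr UMI were deeper, with medians of 11543 against 9952 UMIs in DMM and 11212 against 9808 in sham, and the part of depth was not tested. Of the Casr superficial-like cells, 55 DMM and 78 sham cells had a Procr UMI. There Gdf5 had a ratio of 2.13 [1.41, 3.12] in DMM and 1.05 [0.619, 1.6999] in sham, Bmp2 of 1.23 [1.13, 1.34] and 1.02 [0.951, 1.10], and Inhba of 0.806 [0.728, 0.891] and 0.966 [0.888, 1.05]. For Gdf6 it was 1.35 [0.415, 3.40] and 1.52 [1.09, 2.08], and for Bmp6 0.981 [0.829, 1.15] and 1.23 [1.11, 1.35]. The intervals of Bmp4, Bmp5 and Gdf10 included 1 in both libraries, so no ligand had an interval without 1 in both there. Of the Serpina1e cells, 79 DMM and 50 sham cells had a Procr UMI, and these were deeper too. Bmp2, Bmp5, Bmp6 and Inhba were higher in them in both libraries, with intervals without 1. For Bmp2 the ratio was 1.07 [1.003, 1.14] in DMM and 1.28 [1.19, 1.36] in sham. For Inhba it was 1.35 [1.28, 1.41] and 1.11 [1.04, 1.17]. Gdf6 in DMM and Gdf10 in sham were lower, on 2 UMIs and 1 UMI in the cells with Procr.

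Other genes of the pathway were described over connective tissue from lists. Over all genes there, 4.02% were past the fold higher and 14.7% lower. None of 9 receptors was past it higher and 2 were lower: the activin type I receptor Acvr1b, at 22.5 CPM in DMM and 38.7 in sham, 1.72-fold lower [1.62, 1.82], and the type II receptor Acvr2a, at 22.1 and 33.4, 1.51-fold lower [1.42, 1.61]. Of 13 measured antagonists and binding proteins, 1 was higher and 4 were lower. Htra1, a secreted protease that binds TGF-beta family ligands, was 1.52-fold higher [1.49, 1.54], and Chrdl1, Crim1 and Grem1 were among those that were lower. The chordin-like antagonist Chrdl1 was at 66.7 and 132 CPM, 1.97-fold lower [1.90, 2.04]. Of 15 SMADs and feedback targets only Smad2, which carries activin signals, was past the fold (36.8 CPM in DMM, 56.6 in sham, 1.54-fold lower [1.47, 1.62]). Of 5 processing enzymes only the protease Tll1 was, 1.60-fold lower [1.44, 1.76]. Of 11 measured other ligands, Mstn (myostatin, 2.19 CPM in DMM, 1.19 in sham) and Lefty1 (17.4 and 10.9), a nodal antagonist, were higher, and Bmp3, at 6.73 and 11.6 CPM, was lower. The median log2 ratios of the lists were -0.25 for receptors, -0.21 for antagonists, -0.12 for SMADs and targets, -0.06 for enzymes and -0.13 for other ligands, beside -0.16 over all genes. With median-of-ratios scaling the ratios of Acvr2a, Crim1, Grem1, Smad2 and Tll1 were short of the fold, and those of Acvr1b, Chrdl1 and Bmp3 remained past it. The lists then had 1 higher and 1 lower among receptors, 3 and 2 among antagonists, and 1 and 0 among SMADs and targets. They had 0 and 0 among enzymes, and 2 and 1 among other ligands. Shares over all genes were not computed with this scaling. The 4.02% and 14.7% hold for plain CPM, so these last counts have no background beside them.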

How the data were processed

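UMI counts per gene and barcode were used as the authors deposited them, without normalisation. The tool was Cell Ranger 7.1.0 per the file headers, and Cell Ranger 3.0.1 per the submitters' processing notes, which also name Seurat, STAR, HTSeq, DESeq2 and mm10. The 6 columns of a deposited bulk table match no sample and were not used. The DMM and sham libraries were analysed with Python 3.11.15, scanpy 1.11.5, scipy 1.17.1 and leidenalg 0.10.2.

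Kept cells had 500 genes or more and no more than 10% mitochondrial UMIs, and Scrublet marked 360 DMM and 463 sham doublets, which were left out. After scaling to 10000 per cell and a log transform, 2000 variable genes without the 8 ligands, 30 principal components, 15 neighbours and a Leiden resolution of 1.0 (seed 1) gave 26 clusters. No integration was used. Marker lists could name a cluster if their mean log2 fold was at least 0.75 (over CPM + 10) with at least 3 markers up. Of these, the list with most markers among the cluster's 10 leading genes gave the name, and ties went to the higher mean fold. No name was given if another list had as many markers among those genes. The same held for much shallower clusters with no marker of the list among them. For a chondrocyte name, Col1a1 also had to be no higher than Col2a1 (a condition added after seeing the data). Populations needed 50 cells per library.

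UMIs were summed per population and library and scaled to CPM. CPM values have exact Poisson, shares exact Clopper-Pearson and ratios exact conditional binomial 95% intervals. For shares of cells with a UMI, cells were thinned to 2000 UMIs and shallower ones left out. No p-values were computed, since each group had 1 library. The intervals were tried on simulated Poisson counts, which have only the counting error that the intervals assume. That simulation cannot show how they hold where a gene's UMIs sit in few cells. Gene positions came from GENCODE vM21 (GRCm38), which placed 99.6% of the features. Promoter windows came from RefSeq (GRCm38.p6), which matched 5 of the 8 ligands, and Bmp2, Gdf5 and Gdf6 have no entry in that table.

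All 8 ligands were named in every population. The gene most like a ligand was chosen by the lower of both libraries' r among genes with at least 50 CPM in 1 population of each library, and pathway genes by the fold and at least 50 UMIs. The ligands, gene lists and rules were chosen with earlier results of these data known. The alternatives were fixed beforehand, except the gene span step and the refits of each population, which were chosen after seeing the data. Some values are not reported here.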

Additional observations from a re-analysis of the deposited data

Results flagged for a closer look

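Opposite directions in different populations were seen for 3 ligands. None of these differences between populations was tested, since each rests on 1 library per group.

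The Gdf6 log2 ratio of DMM over sham was 1.88 in the Serpina1e cells and -2.49 in the Casr superficial-like cells. Without the top cells it was 2.02 and -2.62. After a clustering on genes centred within each library, the cluster matching the Casr cells was at 0.80.

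The Bmp2 log2 ratio was 1.52 in the osteoblast-like cells, where 41.3% of the DMM UMIs were in 1 cell, and -0.88 in the lining-like cells.

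The Bmp6 log2 ratio was 1.45 in the Ccl7 fibroblast-like cells, where the level was 13.0 CPM in DMM and 4.75 in sham. Both values lay in the range of the erythroid-like populations (1.33 to 14.2 in DMM, 3.52 to 8.50 in sham). In the Npy cells, where the level was 147 and 253, the log2 ratio was -0.78.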

How the results depend on the processing

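Over connective tissue, the log2 ratios that moved by more than counting error were these. With median-of-ratios scaling Bmp2 was at -0.049, Bmp4 at 0.15, Bmp5 at -0.68, Bmp6 at -0.42, Gdf10 at 0.15 and Inhba at 0.39, so that Bmp4 and Gdf10, near 0 before, were above it. CPM without the 50 most abundant genes gave -0.16 for Bmp2, -0.53 for Bmp6 and 0.28 for Inhba, and thinning gave -0.16 for Bmp2, 0.12 for Gdf5 and -1.13 for Gdf6. The sham makeup gave -0.74 for Bmp5, -0.42 for Bmp6 and 0.042 for Inhba, doublets kept gave 0.29 for Inhba, and the gene span step gave -0.25 for Bmp2, -0.14 for Bmp4, -0.49 for Bmp5, -0.13 for Bmp6 and 0.32 for Inhba. The cause of these shifts was not tested. The number of ligands past the fold was 2, and 1 with median-of-ratios scaling, where Gdf6 (-0.584) was short of the fold, 4 with a lower fold limit and 0 with a fold of 2. After the gene span step Bmp5 was short of 1.5-fold.

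Of 32 population ratios past 1.5-fold, 29 kept their direction under all 11 alternatives and 10 also stayed past the fold under all of them. Reversals were Inhba in the Pcp4 chondrocyte-like cells (log2 ratio -1.07 with at least 1000 genes per cell, -0.29 with centring by library), Gdf6 in the Casr superficial-like cells (0.80 with centring) and Bmp4 in the Angptl7 cells (0.018 at a Leiden resolution of 0.5). Under another clustering, populations were matched by overlap of cells. The highest population was the matched one in 7 of 7 other clusterings for Bmp2, Bmp4, Bmp5, Gdf5, Gdf10 and Inhba, in 6 for Gdf6 and in 5 for Bmp6, where the hypertrophic-like cells took its place. For Gdf10 the matched cluster shared under 50% of cells in 6 of the 7 (20.1% at the lowest), so it was mostly other cells. In the highest population, the direction turned under 5 of 11 alternatives for Gdf10, 3 for Bmp6 and 1 for Bmp2. No paired analysis was possible because each group has 1 library, and for the same reason no replicate could be left out. Depth limits Gdf5 and Gdf6 most, with 472 and 359 UMIs in DMM and 372 and 604 in sham connective tissue.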
